A study of Mus musculus with 2 samples.

Results

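The genes described here encode the coat of caveolae: Cav1, Cav2, Cavin1, Cavin2 and Cavin3. They were chosen by name, and all 5 were among the 31057 rows of both count tables. Caveolae are small flask-shaped pits of the plasma membrane. Caveolins are wedged into the inner leaflet of the membrane, with CAV1 needed for the pits to form outside muscle and CAV2 joining it in mixed oligomers. Cavins coat the caveolins from the cytosol: CAVIN1 is required for the pit, while CAVIN2 and CAVIN3 bind CAVIN1 in separate complexes. Continuous endothelium of large vessels is rich in caveolae, whereas sinusoidal endothelium of the liver is known for its fenestrae and for uptake through clathrin-coated pits.

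Transcripts were counted in single endothelial cells of mouse liver, in 1 library of cirrhotic mice and 1 library of control mice. All mice were C57BL/6, 16 weeks old, and had the genotype Cdh5-Cre+, mTmG +/+, in which Cre under the endothelial Cdh5 promoter acts on a reporter, so that recombined cells turn from tdTomato to GFP. Cirrhosis followed inhalation of carbon tetrachloride, a hepatocyte toxin, for 12 weeks. The library of each group came from live GFP-positive non-parenchymal cells pooled from 3 mice, so differences between the groups have no replicate check and no test was made. The question put by the study concerns liver sinusoidal endothelial cells (LSECs) of separate lobule zones in cirrhosis. The labels carry one treatment text for both groups, so the group was taken from the disease model named for each sample.

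The cirrhosis library held 8327 barcodes and 77339928 UMIs (unique molecular identifiers, which count RNA molecules), and the control library held 5642 barcodes and 45767322 UMIs. They shared 17 barcode strings. After filters, 7191 cirrhosis and 4953 control barcodes were kept. They included cells that a GFP sort should not hold, among them 1282 cirrhosis and 419 control hepatocyte-like barcodes. Pooled LSEC-like cells numbered 2490 in cirrhosis and 2862 in control, with medians of 9470 and 6940 UMIs. They were divided into pericentral (310 cirrhosis, 459 control cells), intermediate (1174, 1842) and periportal (346, 465) classes and 1 cluster that fitted no zone (660, 96). Endothelium of larger vessels was divided into central-vein-like (97, 63) and portal or arterial-like cells (214, 102). Lymphatic endothelial-like cells numbered 63 in cirrhosis and 2 in control, so no ratio was taken there.

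The classes did not hold the same kinds of cell in both libraries. In the intermediate class, 9.97% of cirrhosis and 33.3% of control cells lay in a cluster led by the immediate-early genes Fosb and Fos. Another cluster, led by Fosb, Nfkbiz and Fos, held a further 11.1% and 17.6%. A cluster led by Esm1 held 24.4% and 4.78%. The cluster with no zone, led by Cnmd, Msr1 and the interferon-stimulated gene Ifit2 among others, made up 26.5% of pooled cirrhosis and 3.35% of pooled control cells. Levels of the LSEC markers summed to 16530 CPM in pooled cirrhosis cells and 22780 CPM in pooled control cells, where CPM is the usual scaling of the UMIs of a gene by the total UMIs of its class. The hepatocyte markers summed to 499.7 and 331 CPM, and Fos was at 220 CPM in cirrhosis and 2203 CPM in control. Central-vein-like cells held LSEC markers at 3227 CPM in cirrhosis and 10810 CPM in control, and portal or arterial-like cells at 5236 and 10730 CPM. Pericentral cells were led by Kit and Wnt2 in both libraries together, but their Rspo3, a Wnt agonist of the central vein, was at 10.3 CPM in cirrhosis and 157 CPM in control. In the first clustering, 99.0% of cirrhosis and 12.7% of control central-vein-like cells lay in the cluster led by Wnt9b, Thbd and Lhx6, while 82.5% of the control cells lay in a cluster that held most control LSEC-like cells. The part of these differences in the results below was not tested.

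Promoter windows were taken from RefSeq on GRCm38.p6 for the 4 members that matched, each with 250 bases before and 50 after the annotated start, written on the strand of the gene. They are shown because Cav1 and Cav2 are neighbours on chromosome 6, with 17219 bases between the end of Cav2 (17281185 to 17289115) and the start of Cav1 (17306335 to 17341452) in GENCODE M21, so the letters near their starts can be set beside their levels. In the same annotation, on GRCm38, Cavin1 spans 100956733 to 100970887 on the minus strand of chromosome 11, Cavin2 spans 51289126 to 51302960 on the plus strand of chromosome 1, and Cavin3 spans 105480083 to 105482300 on the minus strand of chromosome 7. Capitals mark matches, on either strand, to the GC box GGGCGG, the CCAAT box, the AP-1 motif TGANTCA, the ETS core CCGGAA, the TEAD motif GGAATG and the sterol-type motif TCACNCCAC.
Cav1 (chr6:17306085-17306384, plus strand): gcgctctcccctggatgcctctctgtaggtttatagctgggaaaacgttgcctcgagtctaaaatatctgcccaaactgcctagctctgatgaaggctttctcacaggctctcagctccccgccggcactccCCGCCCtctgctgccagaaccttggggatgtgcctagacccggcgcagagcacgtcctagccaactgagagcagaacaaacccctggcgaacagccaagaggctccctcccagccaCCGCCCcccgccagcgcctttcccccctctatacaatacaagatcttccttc
Cav2 (chr6:17280935-17281234, plus strand): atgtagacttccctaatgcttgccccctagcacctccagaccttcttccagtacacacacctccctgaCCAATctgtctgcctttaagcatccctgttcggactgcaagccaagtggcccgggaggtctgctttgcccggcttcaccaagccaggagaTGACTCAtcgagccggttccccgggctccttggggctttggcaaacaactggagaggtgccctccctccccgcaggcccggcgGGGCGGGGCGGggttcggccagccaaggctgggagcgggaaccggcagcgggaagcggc
Cavin1 (chr11:100970566-100970865, minus strand): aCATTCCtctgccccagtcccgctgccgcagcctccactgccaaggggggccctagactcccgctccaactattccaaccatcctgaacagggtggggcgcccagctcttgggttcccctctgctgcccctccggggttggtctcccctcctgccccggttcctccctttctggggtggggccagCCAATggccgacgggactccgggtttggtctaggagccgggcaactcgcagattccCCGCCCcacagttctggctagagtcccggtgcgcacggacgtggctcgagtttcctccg
Cavin2 (chr1:51288876-51289175, plus strand): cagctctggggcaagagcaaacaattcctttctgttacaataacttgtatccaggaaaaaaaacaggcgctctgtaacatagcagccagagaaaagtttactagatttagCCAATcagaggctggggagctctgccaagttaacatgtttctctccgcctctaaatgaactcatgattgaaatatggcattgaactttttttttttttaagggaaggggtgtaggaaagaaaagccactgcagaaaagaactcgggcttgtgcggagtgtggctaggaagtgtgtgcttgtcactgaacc

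The Cav1 window held 2 GC boxes and no other match. A window at another annotated Cav1 start (chr6:17307390-17307689), not printed, held none of these motifs, and the window at another Cavin1 start, 2 bases away, held the same motifs as the one printed. The Cav2 window held 2 overlapping GC boxes, 1 CCAAT and, at -92 from the start, the only AP-1 match among these windows. The Cavin1 window held 1 GC box, 1 CCAAT and 1 TEAD motif, and the Cavin2 window held 1 CCAAT only. Of 27025 promoters of the same length, 35.9% held the GC box, 37.9% CCAAT, 7.93% the AP-1 motif, 15.2% the ETS core, 14.6% the TEAD motif and 1.22% the sterol-type motif. A match is a string of letters and says nothing about binding. The GC content was 59.3% in the Cav1 window, 64.3% in that of Cav2, 67.0% in that of Cavin1 and 43.3% in that of Cavin2.

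Cav1, the caveolin that builds the pit, was, among named endothelial classes, lowest in sinusoidal cells and highest in vessel and lymphatic cells. In cirrhosis it was at 29.9 CPM in periportal, 37.0 in intermediate and 37.0 in pericentral LSEC-like cells, 77.1 CPM in portal or arterial-like, 110 CPM in central-vein-like and 878 CPM in lymphatic cells (exact Poisson interval 810 to 950). In control it was at 28.9 CPM in periportal, 35.1 in intermediate, 47.0 in pericentral, 77.8 in portal or arterial-like and 116 CPM in central-vein-like cells. All intervals here are 95% intervals for counting error only. The order of the classes was the same in both libraries. In cirrhosis pericentral and intermediate cells did not differ beyond counting error (log2 ratio 0.00, -0.31 to 0.30), and the neighbours intermediate and periportal did not differ beyond counting error in either (log2 ratio 0.31, -0.01 to 0.64, in cirrhosis and 0.28, -0.04 to 0.61, in control).

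In LSEC-like cells the libraries differed little in Cav1. In pooled LSEC-like cells it was at 32.3 CPM in cirrhosis (763 UMIs) and 36.2 CPM in control (782 UMIs), a log2 ratio of -0.17 (exact conditional interval -0.31 to -0.02). The log2 ratio was -0.34 in pericentral (-0.69 to 0.00), 0.08 in intermediate (-0.12 to 0.27) and 0.05 in periportal cells (-0.37 to 0.47). Of 10 endothelial clusters with at least 50 cells in both libraries, 5 were higher and 5 lower, from -0.67 to 0.31. A further cluster led by Pi16, Thbd and Wnt9b, with markers of pericentral and vein cells mixed, had 502 cirrhosis and 26 control cells and was left without a name. Its Cav1 level was 99.6 CPM in cirrhosis and 30.4 CPM in control (6 UMIs), and adding it to the pooled class moved the log2 ratio to 0.36.

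In portal or arterial-like cells Cav1 gave 77.1 CPM in cirrhosis and 77.8 CPM in control, but 1 control cell decided the value. That cell held 47 of the 81 control UMIs, or 58.0%, while the next held 4. Without the highest cell of each library the levels were 71.1 CPM in cirrhosis and 33.25 CPM in control, and the log2 ratio was 1.10 in place of -0.01. The control level then lay below that of pericentral cells, so the place of these cells in the control order rests on that cell. With each cell thinned to 3000 UMIs, 17.2% of cirrhosis cells (12.3% to 23.15%, exact binomial) and 9.0% of control cells (4.20% to 16.4%, 9 of 100 cells) had a Cav1 UMI, intervals that overlap; without thinning the shares were 35.1% and 25.5%. Within the first-step cluster led by portal and arterial genes, Cav1 was at 73.9 CPM in 280 cirrhosis cells and 35.65 CPM in 92 control cells (33 UMIs). That gave a log2 ratio of 1.05 (0.52 to 1.63). Of these cells, 209 in cirrhosis and 86 in control were portal or arterial-like. In central-vein-like cells the levels were 110 CPM in cirrhosis and 116 CPM in control (-0.07, -0.50 to 0.37). There 1 control cell held 15 of the 63 UMIs, and the log2 ratio was above 0 in 7 of 8 other settings (-0.02 to 0.42 over all 8). Within the Wnt9b-led first-step cluster Cav1 was at 108 CPM in 457 cirrhosis cells and 708 CPM in 10 control cells (80 UMIs). Most of those cirrhosis cells, 342, were of the Pi16-led cluster, and 96 were central-vein-like, as were 8 of the control cells.

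Cav2, which joins Cav1 in the caveolin oligomer, was spread more evenly over the zones and vessel types and was lower in cirrhosis in every cluster compared. Over these classes its level ranged from 110 CPM (central-vein-like) to 163 CPM (portal or arterial-like) in cirrhosis, and from 166 CPM (central-vein-like) to 195 CPM (pericentral) in control. The highest of these classes was 1.49 times the lowest in cirrhosis and 1.18 times in control, whereas for Cav1 over the same classes these values were 3.70 and 4.01. Lymphatic cells of the cirrhosis library lay above them, at 298 CPM. In pooled LSEC-like cells Cav2 was at 142 CPM in cirrhosis and 174 CPM in control, a log2 ratio of -0.29 (-0.36 to -0.22). The log2 ratio was -0.45 in pericentral (-0.62 to -0.28), -0.30 in intermediate (-0.40 to -0.21), -0.14 in periportal (-0.31 to 0.03), -0.59 in central-vein-like (-0.98 to -0.20) and -0.22 in portal or arterial-like cells (-0.47 to 0.04). The intervals of the periportal and portal or arterial-like classes include 0. Cav2 was lower in 10 of 10 clusters (-0.59 to -0.08). It was also lower in cirrhosis in hepatocyte-like barcodes, at 21.4 CPM in cirrhosis and 64.2 CPM in control, and in T or NK cell-like barcodes, at 12.98 and 33.5 CPM. The LSEC markers of these barcodes were lower in cirrhosis too, at 1587 against 7137 CPM and 1018 against 3953 CPM. The part of RNA from outside the cell was not tested.

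**Figure D1:**
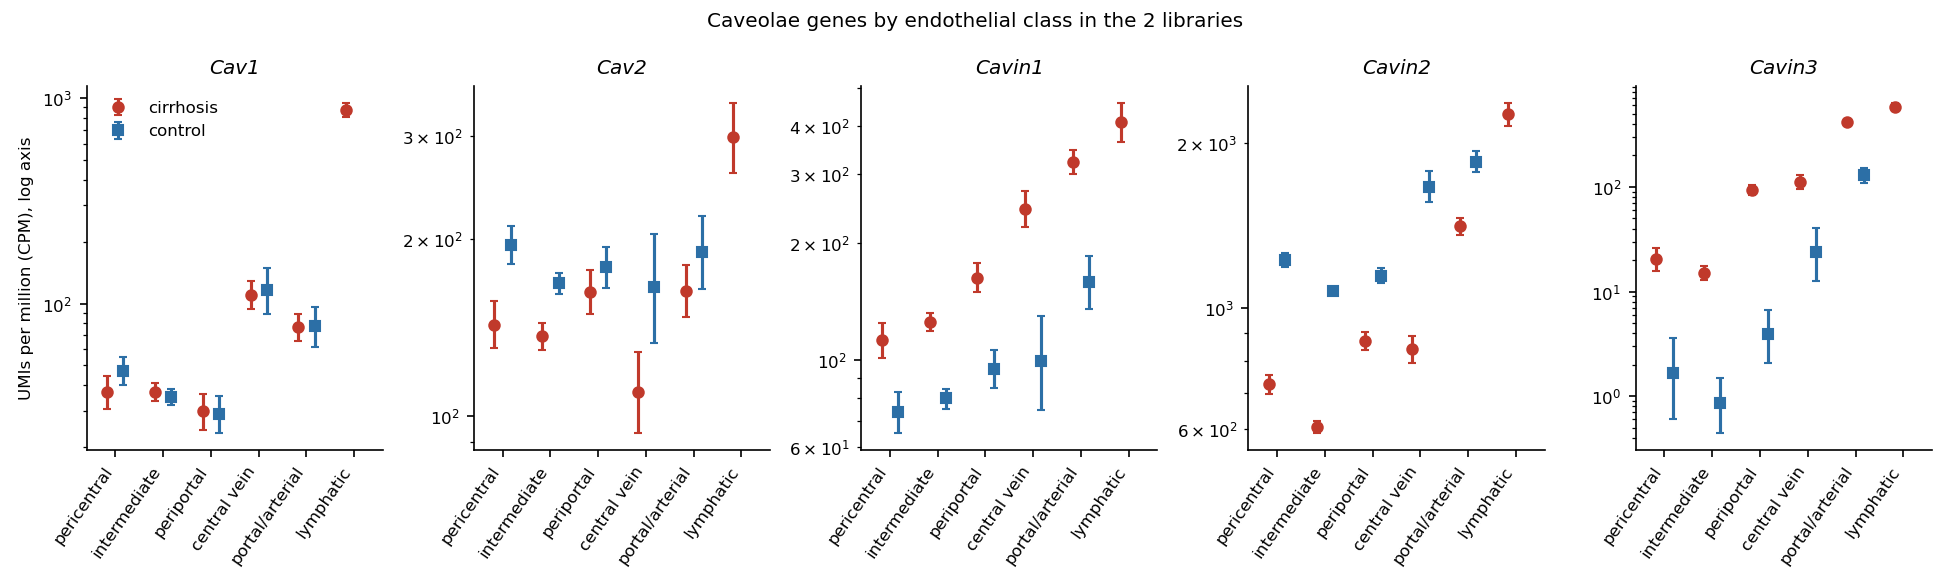
Level of each gene in CPM (log axis) by endothelial class, circles for the cirrhosis library and squares for the control library, with exact 95% Poisson bars for counting error. Cavin1 and Cavin3 lie higher and Cavin2 lower in cirrhosis in each class, while Cav1 differs more between classes than between libraries; lymphatic cells are shown for cirrhosis only, with 63 cells.

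Cavin1, the cavin without which no pit forms, was higher in cirrhosis in every zone and vessel type. In pooled LSEC-like cells it was at 125 CPM in cirrhosis (2953 UMIs) and 80.8 CPM in control (1744 UMIs), a log2 ratio of 0.63 (0.54 to 0.71). Pericentral cells gave 112 CPM in cirrhosis and 73.6 CPM in control (0.61, 0.38 to 0.84), intermediate cells 126 and 79.8 CPM (0.65, 0.54 to 0.77), and periportal cells 163 and 94.9 CPM (0.78, 0.58 to 0.99). The ratio was larger in vessel cells, with 244 CPM in cirrhosis and 99.3 CPM in control in central-vein-like cells (1.30, 0.88 to 1.74) and 323 and 158 CPM in portal or arterial-like cells (1.03, 0.78 to 1.28). Whether it differs between classes was not tested, since each class has 1 value a library. The central-vein-like classes drew on different first-step clusters, and both vessel classes held LSEC markers at lower levels in cirrhosis, as given above. Within the Wnt9b-led first-step cluster, Cavin1 was at 200.5 CPM in 457 cirrhosis cells and 380 CPM in 10 control cells (43 UMIs), the other direction, with too few control cells for a ratio. Unlike cells are compared there, since 342 of the cirrhosis cells were of the Pi16-led cluster and 96 were central-vein-like. All 10 clusters were higher in cirrhosis (0.56 to 1.30).

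Among the zones and vessel types, Cavin1 was highest in vessel cells within each library. Its order was portal or arterial-like, central-vein-like, periportal, intermediate and pericentral in both libraries. The last 2 of these did not differ beyond counting error (log2 ratio 0.16, -0.01 to 0.33, in cirrhosis and 0.12, -0.08 to 0.32, in control), nor did central-vein-like and periportal cells in control (0.07, -0.38 to 0.49). At 3000 UMIs a cell, a Cavin1 UMI was found in 30.2% of pooled cirrhosis and 20.2% of pooled control LSEC-like cells (62.5% and 40.8% without thinning). In T or NK cell-like barcodes, which should lack it, the shares were 2.46% and 3.88%, and in B cell-like barcodes 2.86% and 1.43%. Median depth was 5909 and 6875 UMIs in the T or NK cell-like and 4007 and 4650 UMIs in the B cell-like barcodes. The level outside endothelium did not follow the same direction everywhere: hepatocyte-like barcodes had 22.5 CPM in cirrhosis and 50.3 CPM in control. The LSEC markers of these barcodes also summed to less in cirrhosis, 1587 CPM against 7137 CPM in control. The part of endothelial RNA in their Cavin1 was not tested.

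Cavin2, the cavin known for shaping endothelial caveolae in some vascular beds, was lower in cirrhosis in every zone and vessel type. In pooled LSEC-like cells it was at 660 CPM in cirrhosis (15608 UMIs) and 1107 CPM in control (23906 UMIs), a log2 ratio of -0.75 (-0.78 to -0.72). Pericentral cells gave 725 CPM in cirrhosis and 1222 CPM in control (-0.75, -0.83 to -0.68), and intermediate cells 605 and 1074 CPM (-0.83, -0.87 to -0.78). The ratio was nearer to 0 in periportal cells, with 869 CPM in cirrhosis and 1145 CPM in control (-0.40, -0.47 to -0.33). Some periportal cells, 61 in cirrhosis and 5 in control, lay in the first-step cluster led by portal and arterial genes. Without them Cavin2 was at 805.5 CPM in 285 cirrhosis cells and 1144 CPM in 460 control cells. In central-vein-like cells the levels were 841 CPM in cirrhosis and 1665 CPM in control (-0.98, -1.11 to -0.86), and in portal or arterial-like cells 1408 and 1849 CPM (-0.39, -0.48 to -0.31). All 10 clusters were lower in cirrhosis (-0.98 to -0.39), with periportal and portal or arterial-like cells nearest to 0 and central-vein-like cells farthest from it.

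Cavin2 was also lower in cirrhosis in barcodes that should lack it. Hepatocyte-like barcodes gave 72.1 CPM in cirrhosis and 406 CPM in control, Kupffer cell-like barcodes 82.0 and 254 CPM, and T or NK cell-like barcodes 88.1 and 207 CPM. B cell-like barcodes gave 42.6 CPM in cirrhosis and 46.3 CPM in control, with an interval for the log2 ratio of -0.79 to 0.54. The LSEC markers of the hepatocyte-like barcodes summed to 1587 CPM in cirrhosis and 7137 CPM in control. Kupffer cell-like barcodes had 2765 and 4821 CPM of them, and T or NK cell-like barcodes 1018 and 3953 CPM. In B cell-like barcodes the sums were 1060 and 1065 CPM. The part of RNA from outside the cell in the sinusoidal difference was not tested. At 3000 UMIs a cell, 80.9% of pooled cirrhosis (79.25% to 82.45%) and 94.1% of pooled control LSEC-like cells (93.2% to 95.01%) had a Cavin2 UMI, against 10.2% and 17.1% of T or NK cell-like barcodes. Without thinning, the shares were 95.6% and 97.7% in LSEC-like cells, and 16.0% and 26.4% in T or NK cell-like barcodes.

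Cavin2 was close to the same level in control cells with high and with low levels of immediate-early genes. Control LSEC-like cells fell mainly into 2 first-step clusters, 1 with Fos at 2801 CPM (1816 cells, median 7938 UMIs) and 1 with Fos at 246 CPM (1021 cells, median 4720 UMIs). The cells with low Fos also differed in Gm42418, a transcript that overlaps ribosomal RNA, at 4234 CPM against 1519 CPM. Cavin2 was at 1120 CPM in the cells with high Fos and 1066 CPM in those with low Fos. Set against the control cells with low Fos alone, cirrhosis gave a log2 ratio of -0.69. The part of the immediate-early genes in the Cavin2 difference was not tested.

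**Figure D2:**
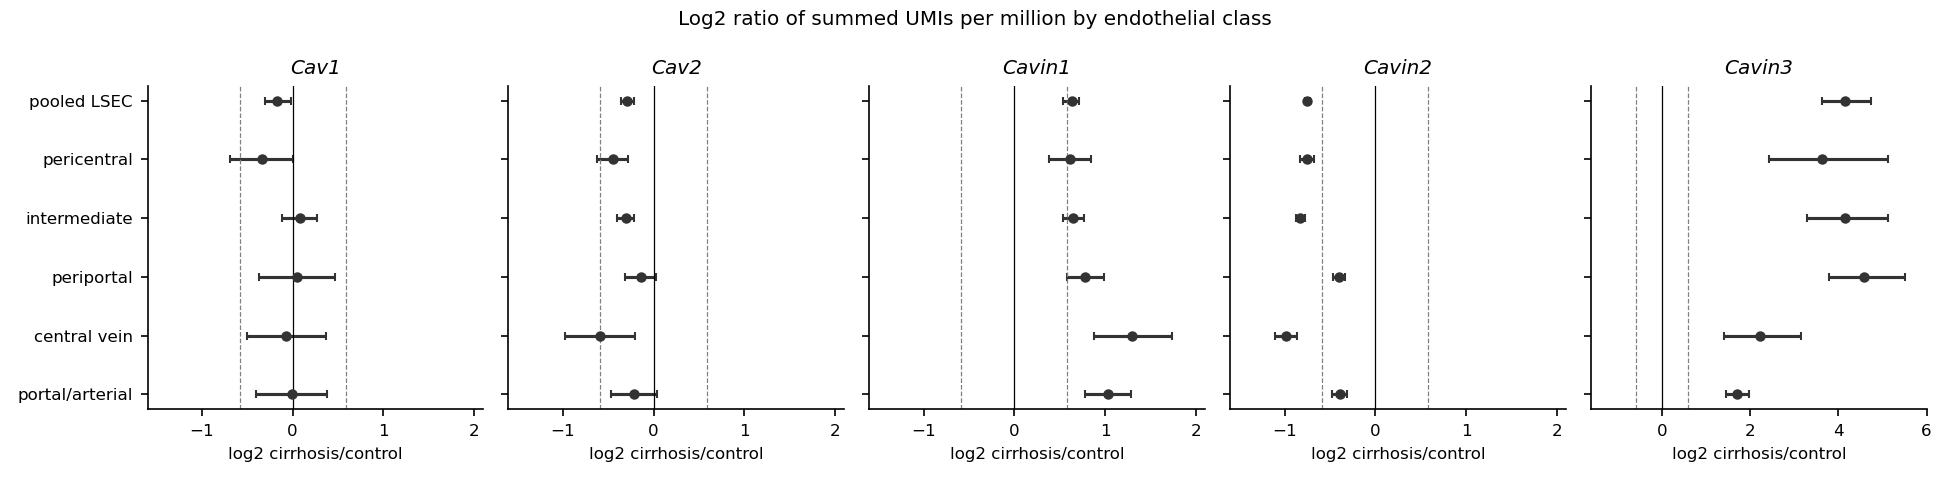
Log2 ratio of cirrhosis over control for each gene in pooled LSEC-like cells and in each zone and vessel class, with exact conditional 95% bars for counting error; dashed lines mark 1.5-fold. Cavin2 lies between -0.98 and -0.39, Cavin1 between 0.61 and 1.30 and Cavin3 between 1.71 and 4.57, on a wider axis.

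Cavin3, the cavin that also binds protein kinase C delta, was barely detected in control LSEC-like cells and was higher in cirrhosis in every zone and vessel type. Pooled LSEC-like cells gave 25.7 CPM in cirrhosis (609 UMIs) and 1.44 CPM in control (31 UMIs), a log2 ratio of 4.16 (3.64 to 4.74), or 2.98 with no limit on other types' transcripts. Periportal cells had the highest level among the zones, at 93.2 CPM in cirrhosis (306 UMIs) and 3.92 CPM in control (13 UMIs), a log2 ratio of 4.57 (3.78 to 5.50), or 2.88 without that limit. Pericentral cells gave 20.5 CPM in cirrhosis and 1.66 CPM in control (3.63, 2.43 to 5.13), and intermediate cells 15.1 and 0.859 CPM (4.14, 3.29 to 5.12). In the cluster with no zone there were 77 UMIs in cirrhosis and 0 of 698596 UMIs in control, which is at least 2.73-fold higher against a floor of 3 counts in the control library.

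In intermediate cells of the cirrhosis library the Cavin3 level was near that of hepatocyte-like barcodes. Hepatocyte-like barcodes gave 11.1 CPM of Cavin3 in cirrhosis (8.26 to 14.7) and 2.92 CPM in control (4 UMIs), and the cirrhosis interval overlaps that of intermediate LSEC-like cells (12.9 to 17.6) but not that of pericentral cells (15.9 to 26.1). T or NK cell-like barcodes gave 5.08 CPM in cirrhosis and 0.904 CPM in control (2 UMIs), and B cell-like barcodes 3 UMIs in cirrhosis and 0 in control. At 3000 UMIs a cell, the share of cells with a Cavin3 UMI was 20.4% in cirrhosis (16.3% to 25.1%) and 1.32% in control (0.485% to 2.85%) in periportal cells. It was 3.73% (2.68% to 5.05%) and 0.304% (0.0989% to 0.709%) in intermediate cells, and 1.08% (0.351% to 2.50%) and 0.813% (0.0206% to 4.45%) in hepatocyte-like barcodes, whose median depth was 2012.5 and 1658 UMIs against 9032 and 6793.5 UMIs in intermediate cells. Without thinning the shares were 35.8% and 2.80% in periportal, 9.28% and 0.597% in intermediate and 1.95% and 0.716% in hepatocyte-like cells.

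The vessel gene Vwf was higher in cirrhosis in each zone, as Cavin3 was. Vwf, which encodes the von Willebrand factor of vessel endothelium, was at 53.2 CPM in cirrhosis and 3.89 CPM in control in pooled LSEC-like cells, at 46.1 and 5.81 CPM in pericentral and at 22.1 and 2.86 CPM in intermediate cells. In periportal cells it was at 204 CPM in cirrhosis and 6.33 CPM in control, and Gja5, a connexin of arterial endothelium, at 22.8 and 1.21 CPM. Gja5 had 1 UMI in cirrhosis and 2 in control in pericentral cells, and 5 and 4 in intermediate cells. In central-vein-like cells Vwf was at 787 CPM in cirrhosis and 754 CPM in control (log2 ratio 0.06, -0.10 to 0.23). Portal or arterial-like cells had Vwf at 1270 CPM in cirrhosis and 466 CPM in control, and Gja5 at 330 and 181 CPM. In cirrhosis 61 of the 346 periportal cells belonged to the first-step cluster led by portal and arterial genes, as did 5 of the 465 in control. Without that cluster Gja5 was at 1.49 CPM in cirrhosis and 1.22 CPM in control, Vwf at 129 and 6.08 CPM, and Cavin3 at 60.5 CPM in the remaining 285 cirrhosis cells and 3.95 CPM in 460 control cells, a log2 ratio of 3.94.

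Vessel cells held more Cavin3 than pooled LSEC-like cells in both libraries. In cirrhosis, central-vein-like and periportal cells did not differ beyond counting error (log2 ratio 0.25, -0.03 to 0.53). Portal or arterial-like cells gave 422 CPM in cirrhosis (963 UMIs) and 129 CPM in control (134 UMIs), a log2 ratio of 1.71 (1.45 to 1.98), and a Cavin3 UMI in 61.6% of cirrhosis (54.5% to 68.3%) and 23.0% of control cells (15.2% to 32.5%) at 3000 UMIs. Central-vein-like cells gave 111 CPM in cirrhosis (161 UMIs) and 23.9 CPM in control (13 UMIs), a log2 ratio of 2.22 (1.40 to 3.16). Within the Wnt9b-led first-step cluster the direction was the other one, with 44.8 CPM in 457 cirrhosis cells and 186 CPM in 10 control cells (21 UMIs). Of those cirrhosis cells 342 were of the Pi16-led cluster, at 25.1 CPM over all its cirrhosis cells, and 96 were central-vein-like, as were 8 of the control cells. In the central-vein-like class 1 cirrhosis cell held 30 of the 161 UMIs and 1 control cell 4 of the 13. In control the portal or arterial-like level was 149.8 times that of intermediate cells, and in cirrhosis 27.9 times. Lymphatic cells of the cirrhosis library were at 581 CPM.

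**Figure D3:**
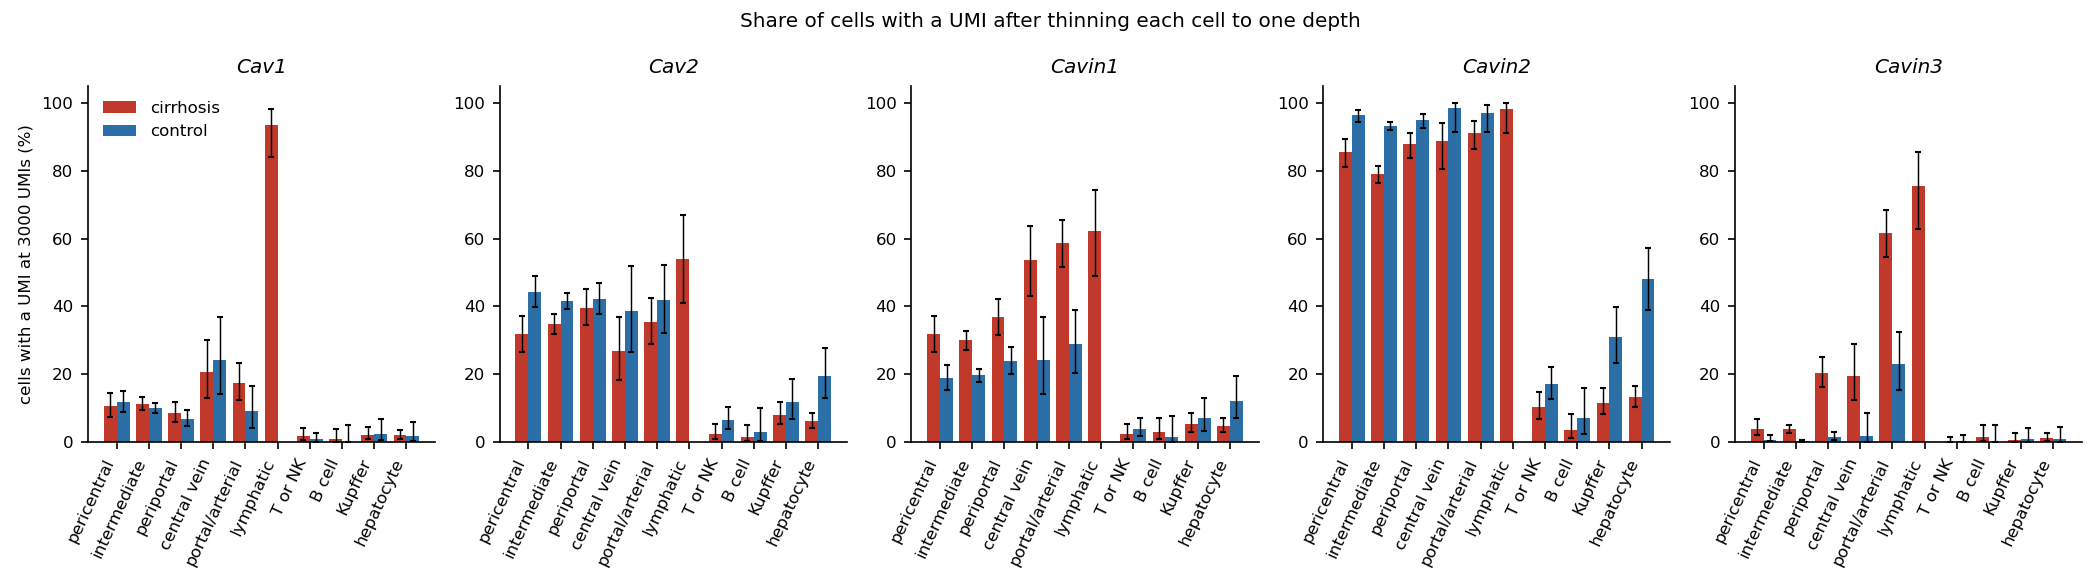
Share of cells with at least 1 UMI of each gene after thinning cells to 3000 UMIs, by class, cirrhosis bars left of control bars, with exact 95% binomial intervals. The last 4 classes are barcodes of other cell types and show the background: for Cavin2 it reaches 13.1% in cirrhosis and 48.0% in control hepatocyte-like barcodes. Thinning left out 818 of 1282 cirrhosis and 296 of 419 control hepatocyte-like barcodes, and without it these shares were 11.5% and 24.6%.

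The ratios of the 5 genes were read against those of all genes. The background was the genes averaging at least 20 CPM over the libraries and seen in each, and a gene counted as past the fold at 1.5-fold. In pooled LSEC-like cells 3.98% of 6865 genes were past the fold higher and 4.76% lower, 8.74% in either direction. Of the 4 members in this background, Cavin1 was past it higher and Cavin2 lower. A ratio at least as high as that of Cavin1 was found for 3.47% of the genes, and one at least as low as that of Cavin2 for 2.75%. One at least as low as that of Cav2 was found for 17.7%, and for 37.1% in periportal and 29.9% in portal or arterial-like cells.

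Across the 3 zones, 6 of 15 values were past the fold higher, those of Cavin1 and Cavin3 in each zone, and 2 were lower, those of Cavin2 in pericentral and intermediate cells. Cavin3 averaged under 20 CPM in pericentral and intermediate cells and was outside the background there. Of all genes 5.89% were higher and 7.49% lower in pericentral cells (13.4% in either direction), 4.0% and 5.03% in intermediate cells (9.04%), and 4.82% and 5.79% in periportal cells (10.6%). In the 2 vessel types, 4 of 10 values were past the fold higher, those of Cavin1 and Cavin3 in each, and 2 were lower, those of Cavin2 and Cav2 in central-vein-like cells. Cav2 there lay at the threshold and was past it in 2 of 8 other settings. The background was 14.3% higher and 14.3% lower in central-vein-like cells (28.6%), and 6.55% higher and 8.87% lower in portal or arterial-like cells (15.4%). In periportal cells 5 of 6822 genes, Cavin3 included, had a ratio at least as high as that of Cavin3.

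**Figure D4:**
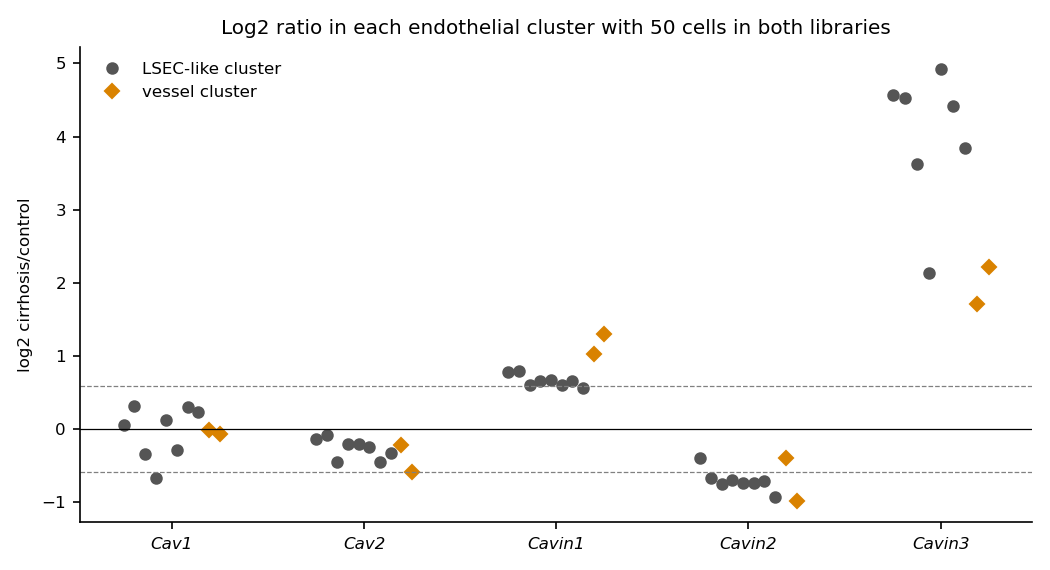
Log2 ratio of cirrhosis over control in each endothelial cluster with 50 cells or more in both libraries (circles, LSEC-like clusters; diamonds, the 2 vessel clusters); dashed lines mark 1.5-fold. Every cluster is above 0 for Cavin1 (10 of 10) and below 0 for Cav2 and Cavin2 (10 of 10 each); 1 LSEC-like cluster has no Cavin3 ratio because control held 0 UMIs.

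Lymphatic cells of the cirrhosis library carried all 5 genes at high levels. They had 878 CPM of Cav1, 298 CPM of Cav2, 408 CPM of Cavin1, 2256 CPM of Cavin2 and 581 CPM of Cavin3. At 3000 UMIs a cell, 96.7% of 61 lymphatic cells had UMIs of 3 or more of the 5 genes. The share with 3 or more was 57.6% in cirrhosis and 26.0% in control portal or arterial-like cells, and 27.4% and 11.6% in periportal cells. In intermediate cells it was 14.2% in cirrhosis and 12.2% in control. The share of pooled LSEC-like cells with none of the 5 was 8.15% in cirrhosis and 2.42% in control.

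Among the genes of the neck of the pit, Ehd2 was higher in vessel and lymphatic cells than in LSEC-like cells. Ehd1 and Ehd4 were also higher in both vessel types than in pooled LSEC-like cells, while Dnm2 was lower there. Ehd2, an ATPase that holds the neck of the caveola at the membrane, gave 1.06 CPM in cirrhosis (25 UMIs) and 0.648 CPM in control (14 UMIs) in pooled LSEC-like cells. In portal or arterial-like cells it was at 152 CPM in cirrhosis and 84.5 CPM in control, in central-vein-like cells at 113 and 34.9 CPM (19 control UMIs), and in cirrhosis lymphatic cells at 331 CPM. Outside the named endothelial classes it was at 108 CPM in cirrhosis and 65.3 CPM in control in mixed stellate-like barcodes. Of the 9 neck and muscle-type partners, 4 were measured in pooled LSEC-like cells, 3 of them higher in cirrhosis and 1 lower, with a median log2 ratio of 0.34 against -0.04 over all genes and none past 1.5-fold. Ehd1, a related ATPase, was at 78.5 CPM in cirrhosis and 57.0 CPM in control (0.46, 0.36 to 0.57). Ehd4 had a log2 ratio of 0.31 in pooled cells and was at 122 CPM in cirrhosis and 68.4 CPM in control in periportal cells. In portal or arterial-like cells Ehd4 was at 524 CPM in cirrhosis and 305 CPM in control, against 85.4 and 68.8 CPM in pooled LSEC-like cells. Pacsin2, an F-BAR protein that bends membrane at caveolae, had a log2 ratio of 0.38, and Dnm2, the scission GTPase dynamin 2, -0.12.

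Of 10 genes whose proteins are reported in or bound by caveolae, 9 were measured in pooled LSEC-like cells, 6 higher and 3 lower in cirrhosis (median log2 ratio 0.26). Cd36, a fatty acid transporter, was at 1507 CPM in cirrhosis and 580.5 CPM in control (1.38, 1.35 to 1.41). Plvap, which forms the diaphragm across caveolae and fenestrae, was at 285 CPM in cirrhosis and 146 CPM in control (0.97, 0.91 to 1.03), and these 2 genes alone of the list were past 1.5-fold, against 3.98% of all genes higher and 8.74% in either direction. Insr, the insulin receptor, had a log2 ratio of 0.50, and Scarb1, the HDL receptor, -0.37. Nos3, the endothelial nitric oxide synthase that CAV1 binds, was at 114 CPM in cirrhosis and 89.6 CPM in control, and was named after its values were seen.

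Genes of other uptake routes and of sterols were on both sides of 0. All 14 clathrin coat and adaptor genes were measured, 9 higher and 5 lower, with a median log2 ratio of 0.05 and none past 1.5-fold. The largest ratios were those of the clathrin light chain Clta (0.58) and the AP-2 subunits Ap2s1 (0.52) and Ap2m1 (0.36), with the pit-initiating Fcho2 at -0.48. The flotillins Flot1 and Flot2, which mark other membrane domains, were both at -0.09 with intervals of -0.24 to 0.06. Of 13 genes of cholesterol synthesis and efflux, 7 were measured, 3 higher and 4 lower (median -0.12). The efflux pump Abca1 was at 90.3 CPM in cirrhosis and 52.4 CPM in control (0.78), Hmgcs1 of sterol synthesis had a log2 ratio of 0.49, and the sterol sensor partner Insig1 had -0.24.

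**Figure D5:**
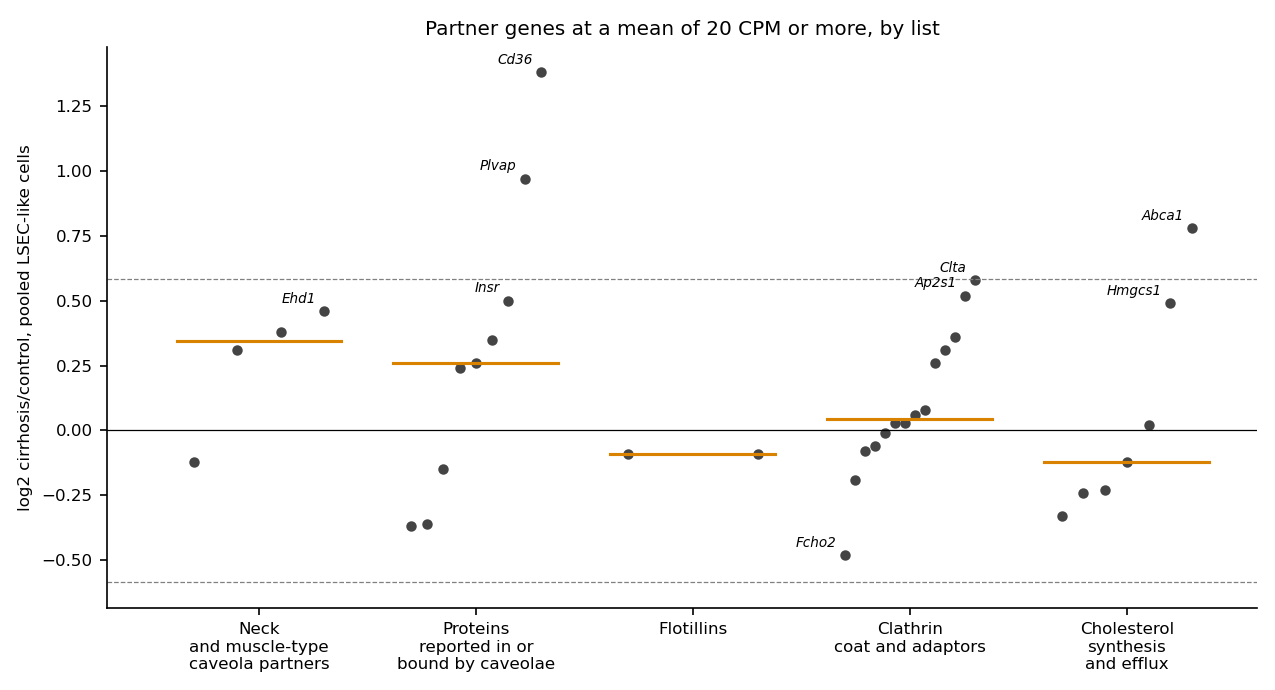
Log2 ratio of cirrhosis over control in pooled LSEC-like cells for partner genes averaging at least 20 CPM, one dot a gene, grouped by list, with the median of each list as a bar and 1.5-fold as dashed lines. Cd36, Plvap and Abca1 are the genes past 1.5-fold, and the list medians lie between -0.12 and 0.34.

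The genes with the most similar pattern to each member were sought over 10 points, the 3 zones and 2 vessel types in both libraries, among 3923 genes at a mean of 50 CPM, by Pearson correlation of log2(CPM + 10). The points of a library share its depth and its cells. For Cav1 they were Prdx6 (0.98), Crip1 (0.97) and Ctsh (0.96), and for Cav2 Fam174b (0.95), Psmb10 (0.93) and Txnip (0.93). For Cavin1 they were Atox1, Sept7 and Kif26a (0.97 each), and for Cavin3 Ly6e, Fam129b and Agrn (0.96 each). For Cavin2 they were Kcnq1ot1 (0.96), H3f3b (0.95) and the immediate-early gene Ier2 (0.94). With 10 points and this many genes high values are common, and they are given as a description. The annotated genes Gm15581, on the opposite strand over Cav1 and Cav2, and 9330175M20Rik, over Cavin2, had 0 UMIs in pooled LSEC-like and vessel cells of both libraries, which allows up to 0.171 CPM in pooled LSEC-like cells of either library and up to 6.79 CPM in vessel cells. Gm45667, on the opposite strand at the start of Cavin3, was not analysed here, and whether the counting used strand is not stated in the labels.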

How the data were processed

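The authors deposited 1 table a library of raw UMI counts per gene symbol and barcode, not normalized. Per the labels' protocols, cells were loaded with the 10x Single Cell 3' v3 chemistry, and the submitters' processing notes name Cell Ranger and mm10. Version, annotation and strand setting were not given in the sources used here.

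Barcodes needed 500 UMIs, 300 genes and under 20% mitochondrial counts, with at most 5% from erythroid markers. This removed 666 cirrhosis and 475 control barcodes. Doublets were scored against simulated ones and the top 0.8% per 1000 barcodes removed: 470 (6.13%) in cirrhosis and 214 (4.14%) in control.

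Cells were clustered with Leiden (leidenalg 0.10.2, Python 3.11.15, scikit-learn 1.9.0, SciPy 1.17.1) on 2000 variable genes, 30 components and 20 neighbours, without the 5 genes and their neck partners. The first step (resolution 0.5) separated cell types. Endothelial cells with at most 0.5% of counts from another type's markers were clustered again with each library scaled on its own. They were named from marker lists where the mean log2 marker fold reached 0.4 and at least 66% of markers had a positive log2 fold. For the intermediate class a mean log2 fold of LSEC markers of 0.2 was enough, and vessel classes needed one of -1 or less. Immediate-early genes lead 2 intermediate clusters and Gm42418 leads another, and names rebuilt this way can differ from those of the study. Clusters with more leading markers of another class than of their own had no zone or vessel name. The cluster with no zone, otherwise intermediate, stayed among pooled LSEC-like cells, while the Pi16-led cluster was left out.

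Counts were summed by class and library and given as CPM. Exact intervals (95%) cover counting error only; ratios with their intervals were checked on simulated counts. A class needed 50 cells in both libraries. Thinning to 3000 UMIs left out 109 cirrhosis and 215 control LSEC-like cells, and 818 cirrhosis and 296 control hepatocyte-like barcodes.

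The members, gene lists and markers were chosen with earlier results of these data known. The second resolution (1.5) was settled after the 5 genes' levels had been seen at 0.5, 1.0 and 1.5, because at 1.0 the central-vein-like class held 566 cirrhosis and 129 control cells of unlike make-up; at 1.5 it still drew on different first-step clusters in the 2 libraries. Likewise, the naming rules, the class with no zone and the exclusion of the Pi16-led cluster were set after values were seen. Named partners are up to 4 a list with the largest absolute ratio in pooled cells at 20 CPM in either library; Nos3, Ehd2 and the class markers are named besides. A gene that the rule selects is not reported here.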

Additional observations from a re-analysis of the deposited data

How the results depend on the processing

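No paired analysis was possible because each group is 1 library. Among 260 values of the 5 genes in single zones and vessel types under other settings, 233 stayed inside the counting interval of the value reported, 27 did not, and 0 of the values past 1.5-fold changed sign. Cav1, under 1.5-fold in pooled LSEC-like cells and in every zone and vessel type compared, changed sign under some settings in each of these classes. In portal or arterial-like cells Cav1 lay between -0.22 and 1.35 and was past 1.5-fold in 4 of 11 settings. In pooled LSEC-like cells the log2 ratio of Cav2 was -0.21 with median-of-ratios scaling. Cavin1 was 0.71 with that scaling, 0.75 with no limit on other types' transcripts and 0.75 with the Pi16-led cluster added. Cavin2 was -0.66 with median-of-ratios scaling, -0.72 as a mean of per-cell CPM, -0.78 with a stricter cell filter, -0.67 with no limit on other types, -0.78 at higher resolution, -0.65 with zones weighted equally, -0.69 against the control cells with low Fos and -0.71 without the cluster that has no zone. Cavin3 was 2.98 with no limit on other types, and Cav1 was 0.36 with the Pi16-led cluster added. The count of vessel-type values past 1.5-fold lower was 1 in place of 2 under median-of-ratios scaling, per-cell means, thinning, the stricter limit on other types and lower resolution, since Cav2 in central-vein-like cells lay at the threshold. In central-vein-like cells the lower resolution gave Cav1 a log2 ratio of 0.42 and Cavin2 -1.20. Cavin1 in pericentral cells was 0.47 with the stricter cell filter, under 1.5-fold. Cav2 in pericentral cells was -0.69 after thinning, Cavin3 was 2.88 in periportal cells with no limit on other types and 4.0 in central-vein-like cells after thinning, and Cavin2 in periportal cells lay between -0.52 and -0.20. The cause was not tested. Classes with under 50 cells in a library gave no value, which was so for central-vein-like cells with doublets kept, with the members in the clustering and at the highest and lowest resolution, for portal or arterial-like cells with no limit on other types, for pericentral cells with doublets kept or with the members in the clustering, and for both outer zones at the lowest resolution. The lowest resolution, the cluster left out or added, the first-step cluster left out and the highest cell left out were tried after seeing the data. Low counts limit Cavin3 in control, where pooled LSEC-like cells held 31 UMIs.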
